A study of Macaca fascicularis and Mus musculus with 42 samples.

Results

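The collagen gene family was followed through the induction of primordial germ cell-like cells (PGCLCs, cultured counterparts of the founder cells of sperm and eggs) from embryonic stem cells (ESCs) of the cynomolgus monkey, with a smaller set of mouse PGCLC libraries. A member was any entry whose symbol is COL, a number, A and a number, which gave 43 of 26018 entries in the monkey table and 44 of 34896 in the mouse table. RNA from sorted cells was measured by 3′-end sequencing, and values are in reads-per-million (RPM). COL22A1 is not analysed here.

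The monkey starting cells were 4 libraries of reporter ESCs at day 0. They carried Blimp1-tdTomato (BT, a reporter of PRDM1) and TFAP2C-EGFP (AG) and came from line 656BTAG42, except library 2, which came from line 656BTAG63. A further 5 libraries were undifferentiated ESCs without a transgene, from the lines CMK6, 656, 681F and 22. All ESCs were grown in AITS medium with bFGF at 20 ng/ml and IWR1. Every induced library used here came from 656BTAG42, so induced cells stand for 1 reporter line. Aggregates were exposed to BMP4 at 200 ng/ml, with SCF at 100 ng/ml, EGF at 50 ng/ml, LIF at 1000 U/ml and Y27632 at 10 µM, in a medium based on knockout serum replacement (GK15) or on Advanced RPMI with B27 (aRB27). Cells positive for both reporters (BTAG) were sorted in GK15 on day 2 (1 library), day 4 (1), day 6 (2), day 8 (2) and day 10 (2), and in aRB27 on day 2 (2), day 4 (2) and day 6 (3). Cells positive for the PRDM1 reporter alone (BT) were sorted in aRB27 on day 2 (1) and day 4 (2). Cells with middle TFAP2C reporter signal (AG mid) were sorted in aRB27 on day 2 (1) and in GK15 on day 4 (1). The mouse cells, line R8 with Blimp1-membraneVenus and Dppa3-ECFP, were induced in GK15 and collected on day 4 (2 libraries) and day 6 (2). They received BMP4, SCF, EGF, LIF and Y27632 at the concentrations given for the monkey cells.

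Collagens are secreted or membrane-bound proteins whose chains wind into a triple helix. Fibrillar collagens build the cable-like fibrils of connective tissue and cartilage, and type IV collagens form the sheet under epithelia called the basement membrane. Others bind to fibrils, form beaded filaments or span the cell membrane. Germ cell precursors migrate through such matrix, and the early embryo lays down basement membrane before its tissues separate.

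The kept monkey libraries held 1.07M to 6.76M reads (M for mega; median 2.26M) and the mouse libraries 2.26M to 2.48M, so 1 read was worth 0.147 to 0.929 RPM in a monkey library. The labels do not say whether libraries of a group came from separate cultures, so p-values measure the spread between these libraries, which may be technical. PRDM1 was 118 to 318 RPM in the 15 BTAG libraries and 0 to 2.59 in reporter ESCs, as the labels require. A further 9 reporter-line libraries were left out as of doubtful label, a choice made with their values known. In 6 of them PRDM1 or TFAP2C went against the label. PRDM1 was, for example, 253 RPM in library 5 of the labelled reporter ESCs and 0.50 in library 2 of the labelled GK15 BTAG cells of day 6. In the libraries labelled GK15 AG mid day 2 and GK15 AG mid day 4 library 2, TFAP2C was 694 and 770 and PRDM1 194 and 145. In the AG mid libraries used, TFAP2C was 24.4 to 146 and PRDM1 0.90 to 11.1. In the other 3, labelled aRB27 BTAG day 6 library 2, day 8 and day 10, PRDM1 (135 to 194 RPM) and TFAP2C (357 to 439) lay within the range of the BTAG libraries used, and SOX17 was 514 to 683 beside 597 to 1190, so these markers did not go against the label. They include every aRB27 library of days 8 and 10 in the table. Counts of called members are also given for every monkey comparison with all libraries as labelled. In sorted bulk samples, fewer cells of a type and less RNA per cell cannot be told apart.

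Of the 43 monkey members, 24 reached 10 RPM in at least 2 of the 24 reporter-line libraries and were tested. These were 7 of 11 fibrillar, 4 of 6 basement membrane, 4 of 9 fibril-associated, 3 of 5 beaded filament, 3 of 4 transmembrane and both multiplexin collagens, and COL26A1. The anchoring fibril collagen COL7A1 and the 3 short-chain collagens did not pass. Of the 19 members that missed the filter, 13 stayed under 10 RPM in every library used, and COL28A1 was listed at 0 in all 29. Levels are compared between libraries for a gene and never between genes, since the efficiency with which each 3′ end was captured is unknown.

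**Figure D1:**
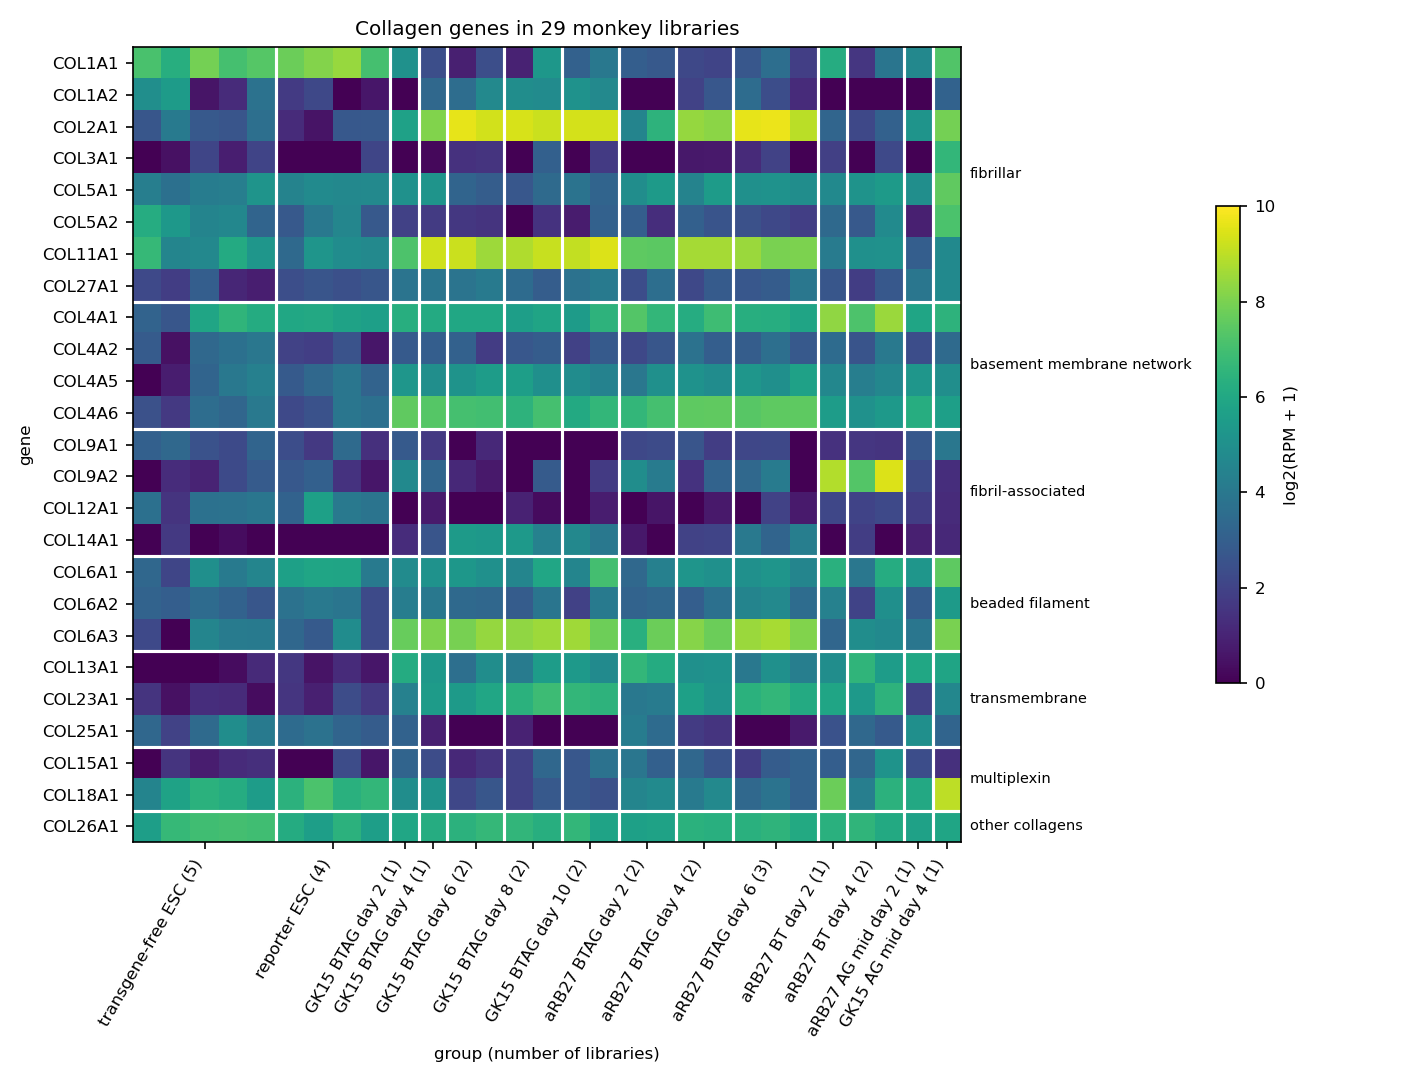
Heat map of log2(RPM + 1) for 25 collagen genes (rows, by structural class) in the 29 monkey libraries used (columns, by group). COL2A1, COL6A3, COL4A6 and COL23A1 are brighter in every BTAG column than in any of the 4 reporter ESC columns, and COL1A1 and COL18A1 are darker.

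The first question was which collagens differ between BTAG cells and the ESCs from which they came. By day 6 in GK15, the cartilage-type fibril genes COL2A1 and COL11A1, the beaded filament gene COL6A3, the basement membrane genes COL4A5 and COL4A6, and the transmembrane genes COL13A1 and COL23A1 had risen. The fibril gene COL1A1, the multiplexin COL18A1 and the fibril-associated COL12A1 had fallen. Differences are on the log2(RPM + 1) scale, which understates the change of low genes, and a gene was called where limma's adjusted p was under 0.05 and the difference was at least 1. Of the 24 tested members, 10 rose and 6 fell in GK15 at day 6 (2 libraries against 4), where 14% of all 10701 genes tested rose and 10.8% fell. The median difference over the members was 0.60, beside 0.01 over all genes. Values of 18 members did not overlap between the groups, as for 46.2% of all genes. In aRB27 at day 6 (3 against 4), 10 rose and 4 fell, beside 12.8% and 13.1% of all genes, with a member median of 0.71 beside -0.08. On day 2, in both media together (3 against 4), 9 rose and 3 fell, beside 10.5% and 5.51%, with a median of 0.78 (0.82 with genes at 0 in a group placed at their bound) beside 0.05. In GK15 on days 8 and 10 together (4 against 4), 11 rose and 7 fell, beside 15.4% and 15.7%, with a median of 0.61 beside -0.09. These 4 comparisons share the reporter ESC libraries, so their values are set side by side and their likeness was not tested. The filter saw 15 BTAG but 4 ESC libraries, so genes high in BTAG cells alone passed more easily than genes high in ESCs alone. COL14A1 and COL1A2 passed through BTAG libraries alone, and COL5A3 and COL24A1, higher in ESCs, missed it. Counts and medians of the members carry this limit, and all genes went through the same filter. With every library as labelled, 0 members were called in GK15 at day 6, 2 on day 2, 13 in aRB27 at day 6 and 15 in GK15 on days 8 and 10.

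COL2A1 encodes the chain of type II collagen, the main fibril of cartilage, which is also made by the notochord and several embryonic epithelia. It was 1.32, 0.43, 5.71 and 5.93 RPM in reporter ESCs 1 to 4. In GK15 BTAG cells it was 51.6 on day 2, 272 on day 4, 801 and 634 on day 6, 674 and 592 on day 8, and 655 and 642 on day 10. In aRB27 BTAG cells it was 21.6 and 86.3 on day 2, 344 and 303 on day 4, and 795, 836 and 497 on day 6. Every BTAG library lay above every ESC library, and the day 2 libraries lay below all later ones. At day 6 in GK15 the mean was 717 ± 118 RPM (SD, n = 2) against 3.35 ± 2.88 (n = 4), a log2 difference of 7.66 ± 0.54 (SE, limma adjusted p = 3.31e-09). The difference was 3.78 ± 0.49 on day 2, 7.62 ± 0.47 at day 6 in aRB27 and 7.51 ± 0.44 on days 8 and 10. As labelled, the day 6 difference in GK15 was 4.51 and was not called.

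COL11A1 encodes a chain of type XI collagen, a minor partner of type II collagen that sets fibril width. Reporter ESCs had 9.71, 36.2, 28.1 and 24.8 RPM. GK15 BTAG cells had 146 on day 2, 619 on day 4, 587 and 374 on day 6, 446 and 572 on day 8, and 545 and 708 on day 10. The aRB27 BTAG libraries ran from 179.8 to 402. No BTAG library overlapped the ESCs. The log2 difference was 2.80 ± 0.31 on day 2, 4.33 ± 0.34 at day 6 in GK15 (limma adjusted p = 1.27e-08), 3.63 ± 0.30 at day 6 in aRB27 and 4.58 ± 0.28 on days 8 and 10. The other type XI chain gene measured, COL11A2, did not exceed 3.44 RPM in any kept library.

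Markers of cartilage and notochord, the best known sites of type II and XI collagen, were read in the same libraries. Of 10 such genes, 4 passed the filter, and their summed level was 30.2 to 59.8 RPM in reporter ESCs and 65.1 to 154 in GK15 BTAG libraries of days 6 to 10. In the aRB27 BTAG libraries of day 6, where COL2A1 was 497 to 836, the list summed to 18.5 to 38.1. HAPLN1, a link protein of cartilage matrix, rose at day 6 in GK15, from 0 in all 4 ESC libraries to 44.8 ± 0.25 RPM (n = 2, limma adjusted p = 6.70e-09), and was the 1 gene of the list that did. In aRB27 at day 6 it was 4.65, 7.62 and 1.32, and over days 2 to 6 it was lower in aRB27 than in GK15 BTAG cells (-2.88 ± 0.31, limma adjusted p = 9.4e-05). ACAN, the main cartilage proteoglycan, was listed at 0 in all 15 BTAG libraries. NOTO, which marks the notochord, was at 0 in 14 of them, and SHH in 13. SOX9, a regulator of COL2A1 in cartilage, was 8.20 to 26.4 RPM in ESCs and 1.75 to 11.8 in BTAG cells of days 2 to 6. In GK15 BTAG cells it was 35.3 and 23.3 on day 8 and 36.0 and 53.5 on day 10.

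Other marker lists moved between ESCs and BTAG cells as well. At day 6 in GK15, all 7 germ cell genes rose and all 5 ESC genes fell. Of 5 amnion genes, 3 rose and 1 fell, and the list summed to 29.9 to 58.7 RPM in reporter ESCs and 189 to 488 in GK15 BTAG libraries of days 6 to 10. Of 7 tested mesenchyme or fibroblast genes, 2 rose and 3 fell, and the list summed to 150.3 to 253 and 22.3 to 109. DCN, a proteoglycan of connective tissue, was 0 in all 4 ESC libraries, 12.2 ± 4.5 at day 6 in GK15 (SD, n = 2, limma adjusted p = 0.00273) and 13.9 to 86.0 on days 8 and 10, while THY1, a fibroblast and stem cell surface protein, fell by 4.92 ± 0.50. LUM, the other of these 2 to rise, lost its call without any 1 of the 6 libraries compared (1.97 to 2.21). Of 8 tested endoderm genes, 2 rose. The part of these markers in the collagen differences was not tested.

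COL1A1 encodes the main chain of type I collagen, the fibril of skin, tendon and bone. It was 215, 279, 346 and 133 RPM in reporter ESCs. In GK15 BTAG cells it was 32.5 on day 2, 4.33 on day 4, 0.83 and 4.22 on day 6, 0.93 and 37.7 on day 8, and 7.61 and 15.1 on day 10. The aRB27 BTAG libraries ran from 2.65 to 11.1. All BTAG values lay below all ESC values, and GK15 day 8 library 2 and day 2 were the highest. The log2 difference was -3.87 ± 0.77 on day 2, -6.22 ± 0.84 at day 6 in GK15 (limma adjusted p = 1.14e-05), -5.12 ± 0.74 at day 6 in aRB27 and -4.51 ± 0.69 on days 8 and 10. As labelled the GK15 day 6 difference was -3.55 and was not called. COL1A2, the partner chain of type I collagen, moved the other way. It was 2.21, 3.45, 0 and 0.54 RPM in ESCs and 0 on day 2 in all 3 libraries, then 10.8 and 25.3 at day 6 in GK15 and 24.9 to 33.2 in the 4 libraries of days 8 and 10. Its difference was 3.03 ± 0.62 at day 6 in GK15 (limma adjusted p = 0.000943) and 3.77 ± 0.51 on days 8 and 10. In aRB27 at day 6 its 3 values, 10.6, 4.10 and 1.32, overlapped the ESCs and it was not called (1.25 ± 0.55, limma adjusted p = 0.0824).

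The chains of type V collagen, which starts fibrils of type I, were lower in GK15 from day 6 on. COL5A1 was 21.3, 26.8, 24.2 and 25.3 RPM in ESCs. In GK15 BTAG cells it was 32.5 on day 2 and 35.5 on day 4, above all 4 ESC libraries. It was 8.33 and 6.63 at day 6 and 5.57, 10.1, 13.2 and 8.30 on days 8 and 10 in GK15, all below the ESCs. It fell by 1.59 ± 0.31 at day 6 (limma adjusted p = 0.000656) and by 1.36 ± 0.26 on days 8 and 10. In aRB27 at day 6 it was 31.7, 32.8 and 29.1 and was not called. COL5A2 was 5.88, 15.1, 23.3 and 5.93 in ESCs and 0 to 7.54 in the GK15 libraries of days 6 to 10, and was called at day 6 (-1.99 ± 0.71, limma adjusted p = 0.0395) and on days 8 and 10 (-2.22 ± 0.58). COL27A1, a fibrillar chain of cartilage and other tissues, was 4.27, 5.18, 4.40 and 5.39 in ESCs and 13.3 and 16.3 at day 6 in GK15 (1.44 ± 0.44, limma adjusted p = 0.0176), and rose by 1.05 ± 0.36 on days 8 and 10. The day 6 call of COL5A2 was lost without either GK15 day 6 library (-2.06 without library 1, -1.92 without library 3), without ESC 2 (-1.84) and without ESC 3 (-1.64). That of COL27A1 was lost without GK15 day 6 library 1 (1.58) or 3 (1.31), and its later call without GK15 day 8 library 1 (0.92), GK15 day 10 library 2 (0.95) or ESC 1 (1.01).

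**Figure D2:**
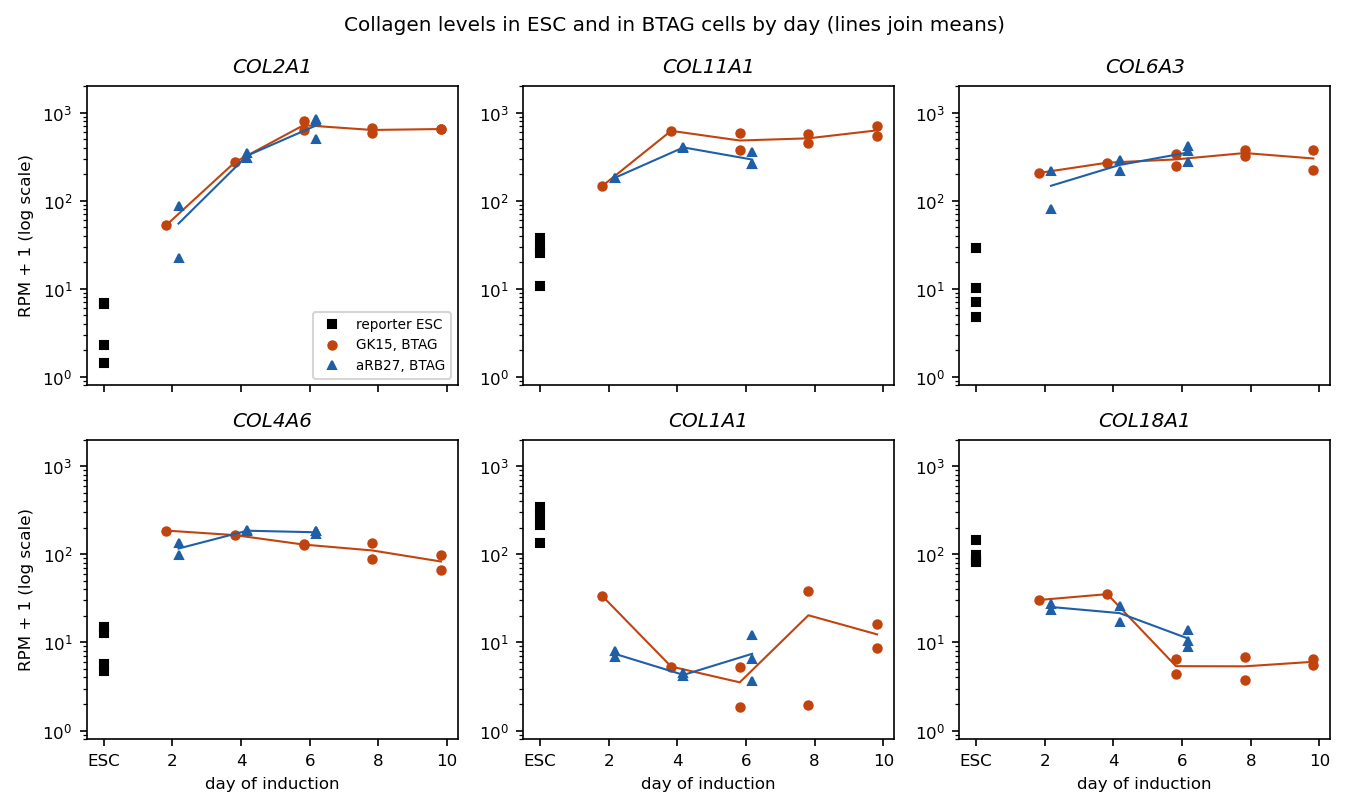
RPM + 1 (log axis) against day for 6 collagen genes in the reporter ESCs (day 0) and in BTAG cells of the 2 media. Points are libraries and lines join the means; COL2A1 climbs from 0.43 to 5.93 RPM in ESCs to 497 to 836 at day 6, while COL1A1 drops below its ESC range of 133 to 346 by day 2.

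In the basement membrane class, the chains split. COL4A6 and COL4A5, which pair in a network of some epithelial and smooth muscle basement membranes, rose, and COL4A1 and COL4A2, the chains of nearly all basement membranes, were not called in GK15. COL4A6 was 3.68, 4.75, 14.1 and 11.8 RPM in ESCs. It was 185 on day 2, 164 on day 4, 131 and 125 on day 6, 86.4 and 133 on day 8, and 65.8 and 98.0 on day 10 in GK15, and 98.2 to 187 in aRB27. All BTAG values lay above the ESCs from day 2 on, with differences of 4.11 ± 0.33 on day 2 (limma adjusted p = 2.84e-08), 3.92 ± 0.36 at day 6 in GK15, 4.39 ± 0.32 at day 6 in aRB27 and 3.46 ± 0.30 on days 8 and 10. COL4A5 was 6.18, 9.49, 14.1 and 8.08 in ESCs and 14.6 to 52.3 in BTAG cells, and it rose by 1.55 ± 0.32 on day 2 and 1.98 ± 0.35 at day 6 in GK15 (limma adjusted p = 0.000237). COL4A1 was 60.8, 65.2, 53.2 and 49.6 in ESCs and 44.3 to 159.5 in BTAG cells. Its difference was 0.76 ± 0.30 on day 2 (limma adjusted p = 0.0741). COL4A2 was 0.54 to 4.84 in ESCs and 6.77, 11.7 and 5.95 at day 6 in aRB27, where it rose by 1.39 ± 0.49 (limma adjusted p = 0.0323). That call was lost without aRB27 day 6 library 1 (1.49), library 3 (1.13) or ESC 4 (1.02).

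Type VI collagen, the beaded filament around many cells, is built of chains encoded by COL6A1, COL6A2 and COL6A3. Only COL6A3 of these was called in BTAG cells. It was 9.12, 6.04, 28.1 and 3.77 RPM in ESCs. It was 205 on day 2, 269 on day 4, 246 and 339 on day 6, 322 and 370 on day 8, and 377 and 222 on day 10 in GK15. In aRB27 it was 78.9 and 214 on day 2, 290 and 216 on day 4, and 362, 416 and 276 on day 6. The groups did not overlap, and the difference was 4.04 ± 0.45 on day 2, 4.86 ± 0.49 at day 6 in GK15 (limma adjusted p = 3.55e-07), 5.12 ± 0.43 at day 6 in aRB27 and 4.99 ± 0.40 on days 8 and 10. COL6A1 was 50.9, 57.8, 56.3 and 16.2 in ESCs and 9.35 to 127 in BTAG cells, and COL6A2 was 3.77 to 15.5 and 2.77 to 25.2, each with overlapping groups.

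Among the fibril-associated collagens, which sit on the surface of fibrils, COL14A1 and COL12A1 moved in opposite directions. COL14A1 was 0 in all 4 ESC libraries, 0 to 1.39 RPM on day 2, 42.5 and 39.8 at day 6 in GK15, and 15.7, 8.21 and 18.5 at day 6 in aRB27. Set against 3 reads over the 4 ESC libraries together, its mean was at least 181-fold higher at day 6 in GK15 and at least 62.0-fold higher in aRB27, both called. On days 8 and 10 it was 41.8, 20.0, 24.2 and 15.1, at least 111-fold higher. COL12A1 was 7.94, 50.1, 15.4 and 13.5 in ESCs and 0 to 2.93 in BTAG cells, with no overlap. It fell by 4.04 ± 0.58 on day 2 (limma adjusted p = 4.09e-05), and it was 0 in both GK15 day 6 libraries, at least 29.2-fold lower than the ESC mean. COL9A1, a chain of the type IX collagen that coats type II fibrils, was 4.12, 2.16, 10.1 and 1.62 in ESCs and 0 in all 4 GK15 libraries of days 8 and 10, where it was called (at least 12.6-fold lower). COL9A2, another type IX chain, was called on day 2, at 25.6, 28.6 and 17.1 against 5.74, 7.34, 1.76 and 0.54 (2.66 ± 0.93, limma adjusted p = 0.0467), and was 0 to 6.36 in the GK15 libraries of days 6 to 10. Leaving out aRB27 day 2 library 1 (2.48) or 2 (2.84), or ESC 1 (2.92), 3 (2.49) or 4 (2.21), ended that call.

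Of the transmembrane collagens, COL13A1, found at cell junctions, and COL23A1 rose, and COL25A1, best known from neurons, fell. COL13A1 was 2.06, 0.43, 1.32 and 0.54 RPM in ESCs. It was 70.2 in GK15 and 96.99 and 69.7 in aRB27 on day 2, above every later BTAG library (11.7 to 45.4), with a difference of 5.27 ± 0.41 on day 2 (limma adjusted p = 1.99e-08) and 3.29 ± 0.45 at day 6 in GK15. COL23A1 was 1.91, 0.86, 3.96 and 2.15 in ESCs, 15.2 to 20.0 on day 2, and 83.6, 115.6, 97.6 and 87.5 in GK15 on days 8 and 10. Its difference was 2.64 ± 0.33 on day 2 and 4.99 ± 0.29 on days 8 and 10 (limma adjusted p = 1.19e-10). COL25A1 was 10.3, 12.5, 8.35 and 6.46 in ESCs and 7.90, 17.5 and 10.2 on day 2, then 0 in both GK15 day 6 libraries (at least 12.7-fold lower) and 0, 0 and 0.66 at day 6 in aRB27 (-3.10 ± 0.39, limma adjusted p = 4.12e-06).

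The multiplexins are basement membrane collagens that carry sugar chains. COL18A1, the source of the fragment endostatin, was 84.7, 144, 80 and 98.0 RPM in ESCs. It was 29.3 on day 2, 34.3 on day 4, 3.33 and 5.43 on day 6, 2.79 and 5.92 on day 8, and 5.54 and 4.52 on day 10 in GK15. In aRB27 it was 22.2 and 26.3, then 16.1 and 24.9, then 9.31, 12.9 and 7.94 on days 2, 4 and 6. Every BTAG library lay below every ESC library, with a difference of -1.86 ± 0.40 on day 2, -4.24 ± 0.44 at day 6 in GK15 (limma adjusted p = 4.84e-07), -3.20 ± 0.39 at day 6 in aRB27 and -4.17 ± 0.36 on days 8 and 10. COL15A1 was 0, 0, 3.96 and 0.54 in ESCs and 8.37, 14.02 and 7.31 on day 2, where it rose by 2.62 ± 0.61 (limma adjusted p = 0.00413). Its rise on days 8 and 10 was 2.202 ± 0.549. Its call at day 6 in aRB27 (1.89 ± 0.59, limma adjusted p = 0.0169) was lost without aRB27 day 6 library 3 (1.76) or 4 (1.63) or ESC 1 (1.65). COL26A1 was 47.0 to 83.96 in ESCs and 50.2 to 98.9 in BTAG cells and was not called in any comparison.

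**Figure D3:**
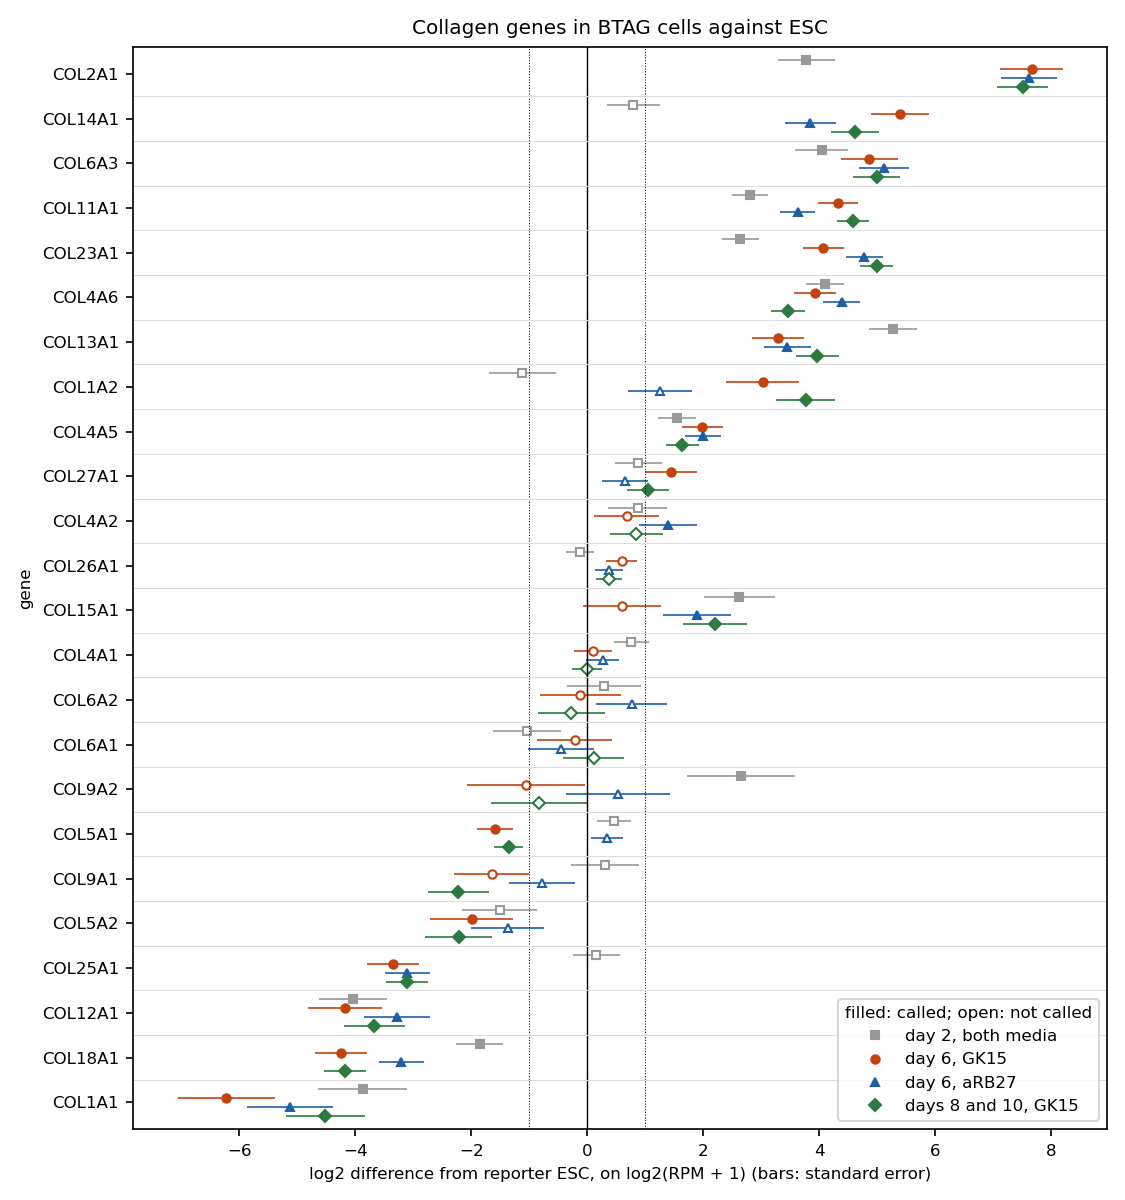
Log2(RPM + 1) difference from reporter ESCs, with its standard error, for the 24 tested collagens in 4 comparisons (day 2 of both media, day 6 in GK15, day 6 in aRB27, and days 8 and 10 in GK15). Filled points were called; COL2A1 lies farthest to the right at day 6 (7.66 in GK15) and COL1A1 farthest to the left (-6.22).

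Change within the BTAG cells was measured as a slope per day over the 15 libraries, with medium as a covariate, and called from 0.125 log2 units per day. All libraries of days 8 and 10 used here were in GK15, so the slope over those days rests on that medium. Of 21 members tested, 5 rose and 4 fell, where 7.14% of 9826 genes rose and 12.2% fell. The median slope was 0.00, beside -0.03 over all genes. COL2A1 rose by 0.52 per day (limma adjusted p = 0.00100), COL1A2 by 0.52, COL14A1 by 0.48, COL23A1 by 0.34 (limma adjusted p = 7.32e-05) and COL11A1 by 0.17. COL25A1 (-0.45), COL9A2 (-0.44), COL18A1 (-0.33, limma adjusted p = 0.00240) and COL5A1 (-0.17) fell. In aRB27, COL5A1 was 29.2 and 42.4 RPM on day 2, 21.3 and 43.6 on day 4, and 31.7, 32.8 and 29.1 on day 6. A slope does not mean an even change. From day 6 to day 10 in GK15, COL14A1 went from 42.5 and 39.8 RPM to 24.2 and 15.1. COL2A1 went from 801 and 634 to 655 and 642, and COL23A1 from 42.5 and 59.1 to 97.6 and 87.5. COL14A1 also lost its slope call in an alternative way of processing. Without the GK15 day 2 library, the only one of its day and medium, 5 members were called in place of 9, and COL11A1 (0.07), COL25A1 (-0.40), COL9A2 (-0.35) and COL5A1 (-0.12) lost their calls. COL9A2 also lost its call without aRB27 day 2 library 1 (-0.41), GK15 day 4 library 1 (-0.43) or GK15 day 10 library 1 (-0.42), and COL5A1 without any 1 of 10 libraries in all (-0.12 to -0.18). As labelled, 8 members were called, COL11A1 not among them.

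The media were compared over days 2, 4 and 6 of BTAG cells (7 aRB27 libraries against 4 in GK15). limma called 0 of 24 members and 9 of all 10701 genes (0.0841%), 3 members had an unadjusted p under 0.05, and edgeR and DESeq2 called 0 members. As labelled, 0 members were called. These 3 were COL27A1 (-1.01 ± 0.33, limma adjusted p = 0.394), COL14A1 (-1.03 ± 0.38, limma adjusted p = 0.493) and COL5A1 (0.61 ± 0.24, limma adjusted p = 0.534), where a minus sign means lower in aRB27. For COL14A1, the aRB27 values at day 6 (15.7, 8.21 and 18.5 RPM) lay below those in GK15 (42.5 and 39.8). For COL5A1, the aRB27 values at day 6 (31.7, 32.8 and 29.1) lay above those in GK15 (8.33 and 6.63). With limma, the test of whether the change from day 2 to day 6 differed between media called 0 of 24 members and 0% of genes. In it 2 members had an unadjusted p under 0.05, COL5A1 (1.82 ± 0.55) and COL1A1 (3.27 ± 1.48). Neither edgeR nor DESeq2 called a member, and 0 were called as labelled. GK15 had 1 library on day 2, and SOX2 at 4.64 ± 1.00 was not called either. The absence of calls therefore does not show that the media act alike.

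The next question was whether cells with the PRDM1 reporter alone carry the same collagens as cells with both reporters. In BT cells of day 4 in aRB27, COL9A2 and COL4A1 were higher than in BTAG cells of that day and medium, and COL2A1, COL11A1, COL6A3, COL4A6 and COL1A2 were lower. Of 24 members, 2 rose and 5 fell (2 libraries against 2), beside 8.05% and 7.08% of all genes, and the member median was 0.05 beside 0.07. As labelled, 1 member was called.

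COL2A1 was 3.48 and 7.60 RPM in BT cells of day 4 against 344 and 303 in BTAG cells, a difference of -5.71 ± 0.62 (limma adjusted p = 2.82e-06). COL11A1 was 31.4 and 32.6 against 402 and 399 (-3.61 ± 0.39, limma adjusted p = 2.76e-06). Against reporter ESCs, these BT libraries were not called different for COL2A1 (0.82 ± 0.54, limma adjusted p = 0.334) or COL11A1 (0.49 ± 0.34, limma adjusted p = 0.355). COL6A3 was 28.9 and 25.7 against 290 and 216 (-3.15 ± 0.57), and COL4A6 was 32.4 and 40.5 against 182 and 187 (-2.32 ± 0.42). COL1A2 was 0 in both BT libraries and 2.88 and 5.6 in BTAG cells (at least 6.70-fold lower). Its call was lost without any of the 4 libraries (-1.96 to -2.72).

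COL9A2 stood at 454 RPM in the BT library of day 2 and at 161 and 718 in those of day 4. In the other 26 monkey libraries it did not exceed 28.6. The difference from BTAG cells on day 4 was 6.10 ± 1.17 (limma adjusted p = 0.000985). This COL9A2 call held when each library was left out in turn, but not in every alternative way of processing. COL9A1 and COL9A3, which encode the other chains of type IX collagen, were 1.71 to 1.99 and 1.02 to 4.70 in the 3 BT libraries, where COL9A1 was not called (limma adjusted p = 0.622) and COL9A3, which missed the filter, was not tested. COL4A1 was 319 on day 2 and 148 and 358 on day 4 in BT cells, against 71.98 and 119.6 in BTAG cells (1.304 ± 0.375, limma adjusted p = 0.0201). That call was lost without BT day 4 library 2 (0.67) or BTAG day 4 library 1 (0.94).

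Marker genes of several lists moved with the BT gate. Of 9 endoderm genes, 6 of the 8 tested rose in BT against BTAG cells, among them GATA6 at 403 ± 110 against 3.53 ± 2.34 RPM (SD, n = 2 each). Their sum was 861 to 2291 RPM in the 3 BT libraries, 73.7 to 97 in the BTAG libraries of day 4 and 3.52 to 22.9 in reporter ESCs. TTR, made by visceral endoderm and liver, was 0 to 778 across the 3 BT libraries, and AFP was 0 to 57.7. The germ cell list of 7 genes had 4 that fell, with a sum of 674 to 1376 in BT and 3411 to 6424 in BTAG cells. Of 5 ESC genes, 4 rose and SOX2 fell, with a sum of 715 to 949 in BT cells, 175 to 352 in the BTAG libraries of day 4 and 2149 to 3299 in reporter ESCs. DNMT3B, a DNA methyltransferase of pluripotent cells, was 282 ± 65.6 against 66.4 ± 20.9 (SD, n = 2 each). SFRP1 lost its call without BTAG day 4 library 1 (3.37) or BT day 4 library 2 (3.29), and ZIC2 without these (0.90 and 1.76) or BT day 4 library 1 (2.35). HAPLN1 was 23.1 ± 4.6 against 0.89 ± 0.37. Of 5 amnion genes, 1 rose and 2 fell, and of 7 tested mesenchyme or fibroblast genes, 1 rose. The part of these markers in the collagen differences was not tested.

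Against the reporter ESCs, BT cells of day 4 (2 against 4) had 8 members that rose and 3 that fell, beside 8.67% and 5.66% of all genes, with a median of 0.56 beside 0.06. COL9A2 (6.44 ± 1.02, limma adjusted p = 0.000141), COL13A1 (5.04 ± 0.45), COL23A1 (4.33 ± 0.36), COL15A1 (3.49 ± 0.67), COL4A6 (2.13 ± 0.36), COL4A1 (2.001 ± 0.324, limma adjusted p = 0.000187), COL6A3 and COL4A5 rose, and COL1A1 (-5.12 ± 0.84), COL12A1 and COL18A1 fell. Without BT day 4 library 2, 7 members were called in place of 11, and COL15A1 (2.58), COL6A3 (1.58), COL4A5 (0.95) and COL12A1 (-2.18) lost their calls. Without BT day 4 library 1, COL18A1 (-0.23), COL6A3 (1.42), COL4A5 (1.304) and COL12A1 (-1.97) lost theirs. As labelled, 5 were called. COL18A1 was 216 on day 2 and 18.4 and 84.3 on day 4 in BT cells, a spread wider than that of the ESCs. Without ESC 1, 2, 3 or 4 in turn, COL18A1 was again not called (-1.12 to -1.40). COL6A3 was not called without ESC 1 (1.51), 2 (1.33) or 4 (1.15), COL4A5 without ESC 1 (0.96) or 4 (1.08), and COL12A1 without ESC 2 (-1.58).

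**Figure D4:**
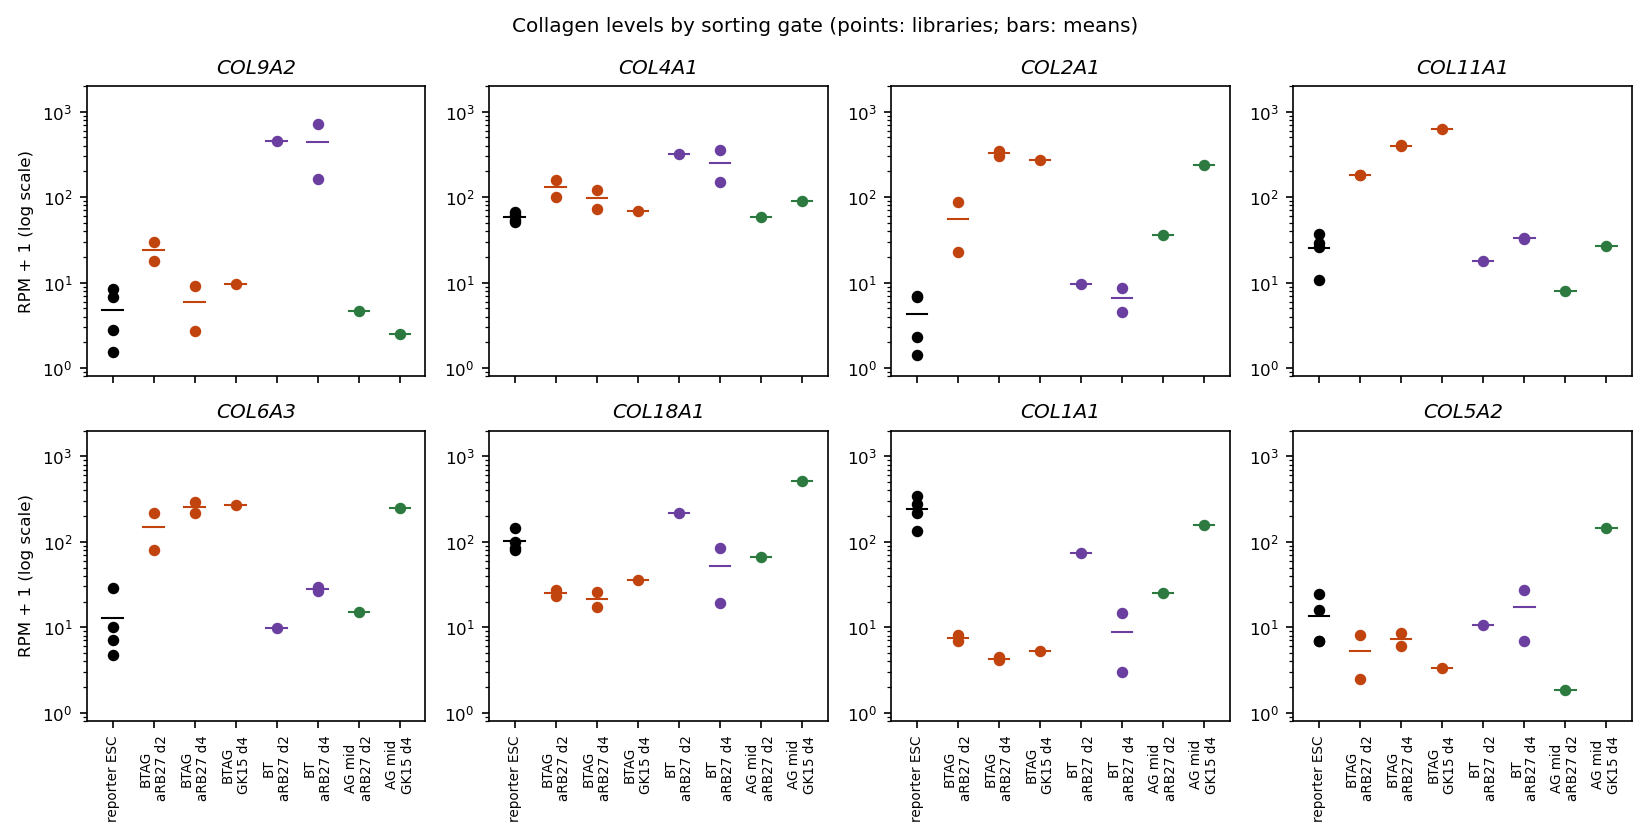
RPM + 1 (log axis) of 8 collagen genes by sorting gate in reporter ESCs, BTAG, BT and AG mid cells, with 1 point per library. The 3 BT points of COL9A2 (161 to 718 RPM) stand above all others (28.6 or less), and the BT and AG mid points of COL11A1 lie at 7.01 to 32.6, below every BTAG point.

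AG mid cells were compared with BTAG cells of the same day and medium (aRB27 day 2 and GK15 day 4, 2 libraries against 3). Of 24 members, 4 rose and 2 fell, beside 5.05% and 6.02% of all genes, with a median of 0.12 beside 0.03. COL11A1 was 7.01 RPM in the aRB27 day 2 library against 181 and 179.8, and 26.0 in the GK15 day 4 library against 619, a difference of -4.51 ± 0.37 (limma adjusted p = 7.39e-08). COL18A1 was 64.8 against 22.2 and 26.3, and 517 against 34.3 (2.63 ± 0.48, limma adjusted p = 0.000772). COL1A1 was 24.3 against 7.01 and 5.85, and 156 against 4.33 (3.33 ± 0.91, limma adjusted p = 0.0186). COL25A1 was 30.5 against 17.5 and 10.2, and 8.22 against 0.83 (1.73 ± 0.48, limma adjusted p = 0.0203). COL23A1 was 2.89 against 15.2 and 17.1, and 23.6 against 44.2 (-1.51 ± 0.39, limma adjusted p = 0.0121). All of these genes differed the same way in both media. COL5A1 was 30.1 against 29.2 and 42.4 in aRB27, with no separation, and 185 against 35.5 in GK15 (1.07 ± 0.34, limma adjusted p = 0.0457). Without library 2 of the aRB27 BTAG cells of day 2, COL25A1 was not called (1.55), and without library 1, COL5A1 was not (0.94). As-labelled fits aside, COL11A1 and COL18A1 alone were called in every alternative setting. As labelled 0 members were called, and COL18A1 (-0.03), COL1A1 (-0.06) and COL5A1 (-0.79) changed sign.

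The AG mid library of GK15 day 4 stood apart for further collagens, fibrillar and beaded filament. COL3A1, the type III chain of extensible tissues, was 98.5 RPM there and at most 7.46 in any other library used, so it missed the filter. COL5A2, which lies next to COL3A1 among protein-coding genes of RefSeq (assembly T2T-MFA8v1.1), was 144 there and 0.83 in the AG mid library of aRB27. COL6A1 was 185 and 37.5 in these libraries, and COL6A2 42.4 and 6.60. Each of these values is a single library of its day and medium. This library carries the code MS134 in its title and its BTAG partner MS162, so the code and the gate cannot be told apart within GK15 day 4.

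Markers of other cell types moved with the AG mid gate too. Of 5 amnion genes, 4 rose against BTAG cells, led by HAND1 at 2500.2 ± 58.2 against 133 ± 126 RPM (SD, n = 2 and 3). VTCN1, 1 of these 4, was lower in aRB27 day 2 (2.48 against 7.01 and 5.85). It was higher in GK15 day 4 (47.5 against 0.17), and it changed sign with every library as labelled. The amnion list summed to 3615 in aRB27 day 2 and 3378 in GK15 day 4, beside 284 to 699 in the BTAG libraries. Of 9 mesenchyme or fibroblast genes, PRRX1 (0 to 1.67 in BTAG cells, 21.9 and 159.6 in AG mid cells) and PDGFRA rose among 7 tested, and the list summed to 156 and 390, beside 72.7 to 216 in the BTAG libraries. Of the 7 germ cell genes, 6 fell, NANOG by 6.43 ± 0.42 and PRDM1 by 5.50 ± 0.40, and that list summed to 1099.6 in the aRB27 AG mid library and 137 in that of GK15, beside 3411 to 5415. Of 8 tested endoderm genes, 1 rose and 3 fell, FOXA2 by 4.43 ± 0.63. GATA4 lost its call without either aRB27 BTAG library of day 2 (-1.65 and -1.73), and GATA6, the 1 that rose, without library 2 (2.63). PDGFRA was not called without library 2 of the aRB27 BTAG cells of day 2 (1.68). POSTN, a matrix gene of fibroblasts, was 0 and 1.05. HAPLN1 was 63.9 and 1188. The part of these markers in the collagen differences was not tested.

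Against reporter ESCs, AG mid cells (2 against 4) had 8 members that rose and 1 that fell, beside 7.23% and 3.81% of all genes, with a median of 1.01 (1.09 with genes at 0 in a group placed at their bound) beside 0.08. COL2A1 was 35.1 in aRB27 day 2 and 237 in GK15 day 4, above all 4 ESC libraries (4.72 ± 0.54, limma adjusted p = 5.08e-06). COL13A1 (4.91 ± 0.45), COL4A6 (2.84 ± 0.36), COL6A3 (2.62 ± 0.49), COL27A1 (1.80 ± 0.44), COL4A5 (1.77 ± 0.35), COL23A1 (1.69 ± 0.36) and COL5A1 (1.59 ± 0.31) also rose. COL6A3 was 14.03 in aRB27 day 2, within the ESC range of 3.77 to 28.1, and 250.1 in GK15 day 4. COL12A1 was 2.48 and 1.34 against 7.94 to 50.1 (-2.67 ± 0.64, limma adjusted p = 0.00752). As labelled, 0 were called.

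Collagen chains need enzymes and chaperones to fold, proteases and lysyl oxidases to assemble, and receptors and proteases that bind and remove them. Among 18 tested genes of modification and folding, 3 rose and 3 fell in GK15 BTAG cells at day 6 against ESCs, beside 14% and 10.8% of all genes, with a median of 0.35 beside 0.01. TMEM38B, an ion channel of the endoplasmic reticulum, rose by 2.65 ± 0.56 (limma adjusted p = 0.00121), and PLOD2, a lysyl hydroxylase of fibril cross-link sites, by 1.78 ± 0.51. CRTAP, part of a prolyl hydroxylase complex, rose by 1.37 ± 0.26, and the prolyl hydroxylase gene P3H2 fell (-2.37 ± 0.77). PLOD2 lost its call without GK15 day 6 library 1 (1.84) or 3 (1.73), and P3H2 without GK15 day 6 library 3 (-1.47) or ESC 3 (-2.19).

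Among 9 tested genes of propeptide processing and cross-linking, 3 rose and 5 fell in that comparison, with a median of -1.40, beside the same shares of all genes. BMP1, the protease that removes the C-terminal propeptide of fibrillar collagens, was 0.21 ± 0.30 RPM (SD, n = 2) against 18.3 ± 7.3 (n = 4), a difference of -3.92 ± 0.59 (limma adjusted p = 3.74e-05). SPARC, a collagen-binding matrix protein, fell from 475 ± 151 to 29.6 ± 1.8 (-3.91 ± 0.40), and the lysyl oxidase relative LOXL1 by 2.81 ± 0.37. PCOLCE2, an enhancer of propeptide removal, rose from 18.8 ± 5.6 to 128 ± 40 (2.72 ± 0.43). Of 6 receptors, ITGA1, the collagen-binding integrin subunit, rose (2.68 ± 0.45, limma adjusted p = 0.000112), and its partner ITGB1 (-1.15 ± 0.24) and the uptake receptor MRC2 (-2.22 ± 0.58) fell, the last not called without GK15 day 6 library 1 (-2.15). Of 7 genes of degradation, 2 rose and 4 fell, with a median of -1.81. Those that rose were proteases, MMP2, a gelatinase, from 90.4 ± 10.2 to 281 ± 22.7 RPM (1.63 ± 0.31, limma adjusted p = 0.000412) and CTSK, a cysteine protease that cleaves collagen (1.22 ± 0.33), the latter not called without GK15 day 6 library 1 (0.93). MMP1, an interstitial collagenase (-3.74 ± 0.82), and the protease inhibitors TIMP1 (-2.73 ± 0.40) and TIMP2 (-1.89 ± 0.34) fell, as did TIMP3 (-1.81 ± 0.66), whose call was lost without either GK15 day 6 library (-1.78 and -1.85) or ESC 3 (-1.87).

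In BT against BTAG cells, 4 of 9 genes of processing and cross-linking rose and 0 fell, beside 8.05% and 7.08% of all genes. Their median was 1.68 beside 0.07. With limma, 6 had an unadjusted p under 0.05. These include PXDN, a peroxidase that cross-links type IV collagen, which was lower in BT cells (-0.69 ± 0.27). LOXL1 was 315 ± 18 against 31.3 ± 18.2 RPM (3.41 ± 0.43, limma adjusted p = 1.21e-05) and SPARC 457 ± 97 against 50.4 ± 15.9 (3.18 ± 0.46). BMP1 (2.73 ± 0.68) and LOXL2 (1.68 ± 0.54) also rose. BMP1 lost its call without BT day 4 library 2 (2.01) or BTAG day 4 library 1 (2.16), and LOXL2 without any of the 4 libraries (1.58 to 1.78). Of 6 receptors, DDR2, a receptor kinase for fibrillar collagens, rose (3.75 ± 0.69, limma adjusted p = 0.000698) and ITGA1 fell (-2.46 ± 0.51). Of the modification and folding list, SERPINH1 (1.22 ± 0.30) and PLOD1 (1.44 ± 0.38) rose and CRTAP fell (-1.22 ± 0.30). The called genes of the degradation list were MMP2 (-1.74 ± 0.36) and CTSK (-1.66 ± 0.38), both lower in BT than in BTAG cells. In AG mid against BTAG cells, SPARC (2.61 ± 0.43, limma adjusted p = 0.000334), PCOLCE (2.201 ± 0.575) and LOXL1 (1.83 ± 0.40) rose and PXDN fell (-1.14 ± 0.25), among 9 tested. Of all genes, 5.05% rose and 6.02% fell in that comparison. DDR2 (2.77 ± 0.65) and DDR1 (1.60 ± 0.39) rose among 6 receptors, and the integrin subunit ITGA11 fell (-2.38 ± 0.70), though not without library 2 of the aRB27 BTAG cells of day 2 (-2.04). Of the degradation list, CTSK (-1.91 ± 0.36) and MMP2 (-1.25 ± 0.33) fell and TIMP2 rose (1.79 ± 0.37). For the folding and degradation genes of these gates, values with a library left out are not given.

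The reporter ESCs were set against the ESCs without a transgene to see how far undifferentiated lines differ. limma called 0 of 18 tested members (4 with an unadjusted p under 0.05; 0 by edgeR and DESeq2; 0 as labelled) and 0.2% of all 9481 genes. COL2A1 was 0.43 to 5.93 RPM in reporter ESCs and 5.15 to 15.9 (median 5.90) in the others, and COL1A1 was 133 to 346 and 76.5 to 236 (median 137). COL1A2 was 0.49 to 43.7 in the lines without a transgene, a range that holds its levels in BTAG cells of days 6 to 10. The codes in the titles differ between the groups throughout, so code and line cannot be told apart.

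In mouse PGCLCs, 4 of 44 members reached 10 RPM in any of the 4 libraries, and 11 were listed at 0 in all. Col18a1 (GRCm38 chromosome 10, 77052178 to 77166548, minus strand) was 163 and 176 RPM on day 4 and 222 and 208 on day 6. It was the 1 member tested and was not called (0.34 ± 0.12, limma adjusted p = 0.159), where 2.59% of 8255 genes were. Col1a1 (chromosome 11, 94936224 to 94953042, plus strand) was 10.2 and 1.33, then 0.84 and 0.81. The neighbours Col4a1 and Col4a2 (chromosome 8, 11198423 to 11312826, minus strand, and 11312805 to 11449287, plus strand) were each 13.7 in day 4 library 1 and 3.36 to 8.48 in the other three libraries. Col2a1 was 7.51 and 3.09, then 0.84 and 2.02, and Col11a1 and Col6a3 did not exceed 0.88. The mouse and monkey tables were made separately, so levels were not compared between species.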

How the data were processed

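Libraries were made by 3′-end sequencing from 1 ng of total RNA of sorted cells, per the labels' protocols. The submitters' processing notes list TopHat 1.4.1, cutadapt 1.3 and Cufflinks 2.2.0, and as a build only GRCm38, which is of the mouse. The authors deposited 1 table of RPM (reads-per-million) per species. Whole reads could be recovered from 99.4% to 99.8% of the low values of a monkey library (tolerance 0.1 of 1 read's worth, up to 100 reads), and these reads served edgeR 4.0.16 and DESeq2 1.42.0 as alternatives.

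The main test was limma 3.58.1 (R 4.3.3) with an intensity trend on log2(RPM + 1), for genes that reached 10 RPM in 2 or more libraries of the fit, with Benjamini-Hochberg adjustment over all genes tested. The 24 kept reporter-line libraries entered 1 fit, so that groups of 1 or 2 libraries share its spread; ESC lines, the day trend and the mouse were fitted alone. Calls needed an adjusted p under 0.05 and a log2 difference of at least 1 (1 per 8 days for slopes). The 9 libraries left out were fixed with the data known: PRDM1 or TFAP2C went against the label in 6, and neither did in the other 3. Members, gene lists, left-out libraries and tests were chosen with earlier results of these data known. The text names members with a group mean of at least 20 RPM or a call, and up to 4 called genes of each other list per comparison; genes named besides were chosen after their values were seen. For a gene at 0 throughout a group, the fold is a bound against 3 reads over that group. The procedure was tested on simulated data for day 6 in GK15 and for the day trend. Changes were planted in genes averaging at least 20 RPM, so recovery of lower genes was not tested. limma recovered 95.2% and 73.2% of changes of 1.5 log2 units (over 8 days for the trend). It recovered 100% of those of 2.5 or 4. False calls were 27 among 10106 genes and 10 among 9486. All 43 monkey identifiers were found in the RefSeq gene table (assembly T2T-MFA8v1.1), used for gene order only. Alternatives were other pseudocounts, filters, scalings and tools, the title code as a covariate, every library as labelled, and leaving out each library.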

Additional observations from a re-analysis of the deposited data

Results flagged for a closer look

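Among 49 sets of 4 or 5 ESC values of a collagen gene, 7 held a library far from the others by Dixon's test. Chance flags about 1 in 20 sets of normally distributed values. That rate need not hold for genes at or near 0, here COL3A1, COL13A1, COL14A1 and COL15A1, so no excess over chance is read from it. In reporter ESCs, COL15A1 was 3.96 RPM in library 3 against 0 to 0.54 in the others, and COL3A1 was 3.23 in library 4 against 0. COL6A1 was 16.2 in reporter ESC library 4 against 50.9 to 57.8. In ESCs without a transgene, COL12A1 was 1.80 in library 2 against 11.8 to 14.3, and COL14A1 was 2.17 in library 2 against 0 to 0.27. COL13A1 was 1.3 in library 5 against 0 to 0.27, and COL5A1 was 35.0 in library 5 against 11.9 to 18.2.

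COL2A1 was above the kept reporter ESCs (0.43 to 5.93 RPM) in 8 of the 9 libraries left out for doubtful labels. It was 516 in the library labelled aRB27 BTAG day 8, 472 in aRB27 BTAG day 10 and 484 in aRB27 BTAG day 6 library 2. It was 40.8 in the library labelled reporter ESC 5. For library 2 of the labelled GK15 BTAG cells it was 19.9 on day 2 and 50.7 on day 4. It was 232 in the library labelled GK15 AG mid day 2 and 605 in GK15 AG mid day 4 library 2. In the remaining one, labelled GK15 BTAG day 6 library 2, it was 3.49.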

How the results depend on the processing

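With every library as labelled, the number of members called moved from 12 to 2 on day 2, from 16 to 0 at day 6 in GK15, from 7 to 1 for BT against BTAG, from 11 to 5 for BT against ESC, from 6 to 0 for AG mid against BTAG and from 9 to 0 for AG mid against ESC; COL18A1 (-0.026), COL5A1 (-0.79), COL1A1 (-0.057), PCOLCE (-0.16) and VTCN1 (-0.31) then changed sign in AG mid against BTAG. A filter of a mean of at least 20 RPM tested fewer members and left 10 calls at day 6 in GK15, 9 in aRB27, 10 on days 8 and 10 and 3 in the day trend. GK15 libraries alone gave 5 calls in the day trend, and a pseudocount of 0.1 gave 3 for AG mid against BTAG; the cause was not tested. Leaving out 1 library gave 11 to 12 calls on day 2, 14 to 17 at day 6 in GK15, 12 to 15 in aRB27, 17 to 18 on days 8 and 10, 5 to 10 in the day trend (5 without the GK15 day 2 library), 5 to 8 for BT against BTAG, 7 to 11 for BT against ESC (7 without BT day 4 library 2), 5 to 6 for AG mid against BTAG, 9 to 10 for AG mid against ESC and 0 for the media, their interaction, the ESC lines and the mouse days. It could not be done for day 2, the media, their interaction or AG mid where it would empty a group of 1 library. No member's call changed sign under edgeR, DESeq2, other scalings, filters or pseudocounts. The members called in all of these settings, as-labelled fits aside, were 10 of 12 on day 2, 12 of 16 at day 6 in GK15, 11 of 14 in aRB27, 12 of 18 on days 8 and 10, 4 of 9 in the day trend, 4 of 7 and 6 of 11 for BT against BTAG and ESC, and 2 of 6 and 6 of 9 for AG mid. No paired analysis was possible because the labels give no replicate numbers and do not say that running numbers in the titles mark pairs; the title code as a covariate was the nearest fit. At the median depth of 2.26M reads, levels under a few RPM rest on a few reads.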

Other observations

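COL5A3 and COL24A1, fibrillar collagens that missed the filter, were 4.85 to 14.1 and 2.2 to 10.4 RPM in the 4 reporter ESC libraries. In the 15 BTAG libraries COL5A3 was 0 to 0.75, and COL24A1 was 0 in 13. COL17A1, the transmembrane collagen of hemidesmosomes, was 27.9 in GK15 BTAG day 10 library 2 and at most 4.84 in the other kept libraries. The 43 collagens summed to 495 to 850 RPM in reporter ESCs, 1072 in GK15 BTAG cells on day 2 and 2087 to 2242 on day 10. In BT cells the sum was 1519 on day 2 and 765.5 and 1769 on day 4. In AG mid cells it was 582 in aRB27 day 2 and 2244 in GK15 day 4. Such sums add genes whose 3′ capture may differ.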
